A study of Mus musculus with 15 samples.

Results

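Messenger RNA of 10 transcription regulators was followed in the mouse hippocampus after contextual fear conditioning and after retrieval of the memory. The genes were chosen by name, with earlier results of these data known. These were *Atf3*, *Atf4*, *Cebpb*, *Cebpd*, *Maff* and *Nfil3*, which encode bZIP proteins, and *Csrnp1*, *Bhlhe40*, *Ier2* and *Ier5*. They are 10 of the 37310 genes in the count table, and all 10 were among the 18008 that passed the filter on low counts and were tested. Hippocampi came from adult male wild-type C57BL/6J mice, 2 months old, with 5 libraries in each of 3 groups, numbered 3, 5, 6, 7 and 8. FC mice were put in a conditioning chamber, where a single shock to the feet (1.5 mA, lasting 2 s) came to its end at 2.5 min, and their tissue was taken 30 min later. RT mice were trained in that way, were put back for a 5 min retrieval test 24 h later, and gave tissue 30 min after the test. The CC mice had only the daily handling, with no training, and their dissection was matched to the other groups by hour of the day. Because CC mice did not enter the chamber, the shock, the chamber and the transfer to it cannot be told apart in these comparisons. The methods describe each library as the hippocampi of a single mouse, while the deposited design text counts more animals per group than there are libraries. P-values therefore refer to the spread between these libraries. Those of the main model are set against what is left of it after fitting 5 factors for unwanted variation, estimated from the same libraries.

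bZIP proteins bind DNA as dimers held together by a leucine zipper, and which members pair decides which sequence they bind. In neurons, calcium entry and kinase cascades switch on a first wave of genes within minutes, without new protein synthesis, and many of these immediate early genes encode transcription factors. ATF3, C/EBPβ and C/EBPδ are known both as parts of such waves and as stress or inflammatory factors, while ATF4 is controlled largely through translation of its mRNA, so that its mRNA level says little about its protein. CREB-type factors act on the cyclic AMP response element (CRE), a DNA sequence found before many of these genes.

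The libraries held 42051401 to 59093377 counted reads in FC, 35731428 to 61275293 in RT and 39992029 to 62555543 in CC. FC3 and RT3 stood apart from the rest: after upper-quartile (UQ) scaling, which makes the upper quartile of the counts equal between libraries, the interquartile range of relative log2 expression was 1.19 in FC3 and 0.63 in RT3, against at most 0.17 in the other 13 libraries. *Fos*, the immediate early gene used here to check the training, had 1148 to 1698 UQ counts in FC, 977 to 1257 in RT and 219 to 357 in CC. Summed UQ counts of 8 choroid plexus markers, none of them at 0, spanned 3820 to 52528 in FC, 2402 to 14707 in RT and 1774 to 2510 in CC. Of these 8 markers, 7 were called higher in FC than in CC and 1 in RT. No marker of the neuron, interneuron, astrocyte, microglia, oligodendrocyte or endothelium lists was called in either comparison, and of the meninges markers 1 was called lower in FC. The part of the choroid plexus in the results below was not tested beyond leaving out FC5 and FC8, the FC libraries highest in these markers. In bulk tissue, fewer cells of a type and less RNA per cell cannot be told apart.

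Promoter windows are shown for 3 members that were called and for 1 that was not, since these genes are often described as CRE targets. RefSeq windows on GRCm38.p6, from 250 bases before to 50 bases after a transcript start, were found for 7 of the 10 members, with 12 windows in all, and none was found for *Cebpd*, *Bhlhe40* and *Ier2*. The capitals mark CGTCA, the core of the CRE, or its reverse complement TGACG. *Atf3* lies on the minus strand (chr1:191183284-191183583), as do *Nfil3* (chr13:52980990-52981289) and the 1 of 4 *Csrnp1* windows with most cores (chr9:119983730-119984029). *Maff* is on the plus strand (chr15:79347270-79347569, the 1 of 3 windows with most cores).
Atf3: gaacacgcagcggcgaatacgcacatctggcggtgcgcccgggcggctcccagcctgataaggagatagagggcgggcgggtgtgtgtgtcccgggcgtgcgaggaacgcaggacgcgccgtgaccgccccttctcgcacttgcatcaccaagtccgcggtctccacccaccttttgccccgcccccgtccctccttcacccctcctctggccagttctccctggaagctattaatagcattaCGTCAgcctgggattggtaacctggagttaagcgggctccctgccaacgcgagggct
Nfil3: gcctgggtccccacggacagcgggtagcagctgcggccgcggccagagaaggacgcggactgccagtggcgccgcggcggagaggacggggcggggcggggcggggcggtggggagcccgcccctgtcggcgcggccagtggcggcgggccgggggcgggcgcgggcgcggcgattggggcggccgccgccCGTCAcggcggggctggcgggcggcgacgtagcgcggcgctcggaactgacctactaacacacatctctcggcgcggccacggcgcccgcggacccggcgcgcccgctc
Csrnp1: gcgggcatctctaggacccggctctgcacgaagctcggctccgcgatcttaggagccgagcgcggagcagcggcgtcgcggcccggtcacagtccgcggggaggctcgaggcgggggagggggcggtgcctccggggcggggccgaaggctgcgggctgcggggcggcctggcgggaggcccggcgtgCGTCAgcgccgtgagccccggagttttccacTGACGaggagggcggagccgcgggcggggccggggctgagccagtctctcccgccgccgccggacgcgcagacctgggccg
Maff: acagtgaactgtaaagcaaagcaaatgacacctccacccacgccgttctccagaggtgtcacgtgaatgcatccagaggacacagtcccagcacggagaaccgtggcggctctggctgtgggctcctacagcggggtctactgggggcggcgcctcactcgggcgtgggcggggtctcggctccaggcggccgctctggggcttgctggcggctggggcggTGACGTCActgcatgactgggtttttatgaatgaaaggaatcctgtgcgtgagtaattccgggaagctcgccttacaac
The core was present in 10 of the 12 windows, against 20.8% of all 32851 windows of the same length, searched on both strands. At least 1 window of 6 of the 7 members held it. *Csrnp1* gave 4 of the 12 windows and *Maff* 3, so that the windows are not independent of each other. The full CRE, TGACGTCA, was in 1.79% of all windows and, among the members, in the *Maff* window alone, where both cores overlap. The *Csrnp1* and *Nfil3* windows shown held 2 cores and 1. *Ier5* had no core in its window. TGANTCA, a pattern with any base at N that takes in the AP-1 site but is wider than it, was in 7.81% of all windows and in 1 other *Csrnp1* window. TGATGNAA, an element bound by C/EBP and ATF dimers, was in 3.97% of all windows and in that of *Atf3*. The palindrome CACGTG was in 7.15% of all windows, TTANGTAA in 2.32% and the CArG box in 1.63%. Of these last 3 motifs, only CACGTG was found in a member, in the *Maff* window shown. These matches describe the letters of the windows and are not measured binding sites.

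Per length of exon, the regulators spanned a wide range, and their order was nearly the same in the 3 groups. *Atf4*, a regulator of the integrated stress response, was highest, with 77.0 ± 24.4 FPKM in FC, 74.8 ± 10.1 in RT and 65.7 ± 3.13 in CC (SD, n = 5 each, FPKM computed from the counts). *Bhlhe40*, a bHLH repressor linked to the circadian clock, was next with 31.5 ± 4.77, 34.2 ± 1.92 and 31.4 ± 2.12 FPKM in FC, RT and CC, and did not overlap *Atf4* in any group. *Ier5*, which encodes an early response protein that acts with heat shock factor 1, had 16.1 ± 3.37, 16.1 ± 1.75 and 15.2 ± 1.29 FPKM. It overlapped *Cebpd*, at 14.0 ± 3.33, 14.9 ± 3.38 and 11.5 ± 1.74 FPKM. *Nfil3*, *Cebpb*, *Ier2* and *Csrnp1* followed between 2.96 and 7.29 FPKM in their group means. Only here did the order differ between groups: *Ier2* had the highest mean of the 4 in FC and came after *Cebpb* and *Nfil3* in RT and CC, and the ranges of *Ier2*, *Nfil3* and *Cebpb* overlapped in FC and in RT. Through FC3, *Ier2* also overlapped *Cebpd* and *Ier5* in FC. *Atf3* averaged 0.875 ± 0.330 FPKM in FC, 0.813 ± 0.0945 in RT and 0.495 ± 0.0528 in CC, and *Maff* 0.477 ± 0.0337, 0.509 ± 0.0456 and 0.464 ± 0.0878. The libraries of *Atf3* and *Maff* overlapped in CC and in FC and not in RT.

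**Figure D1:**
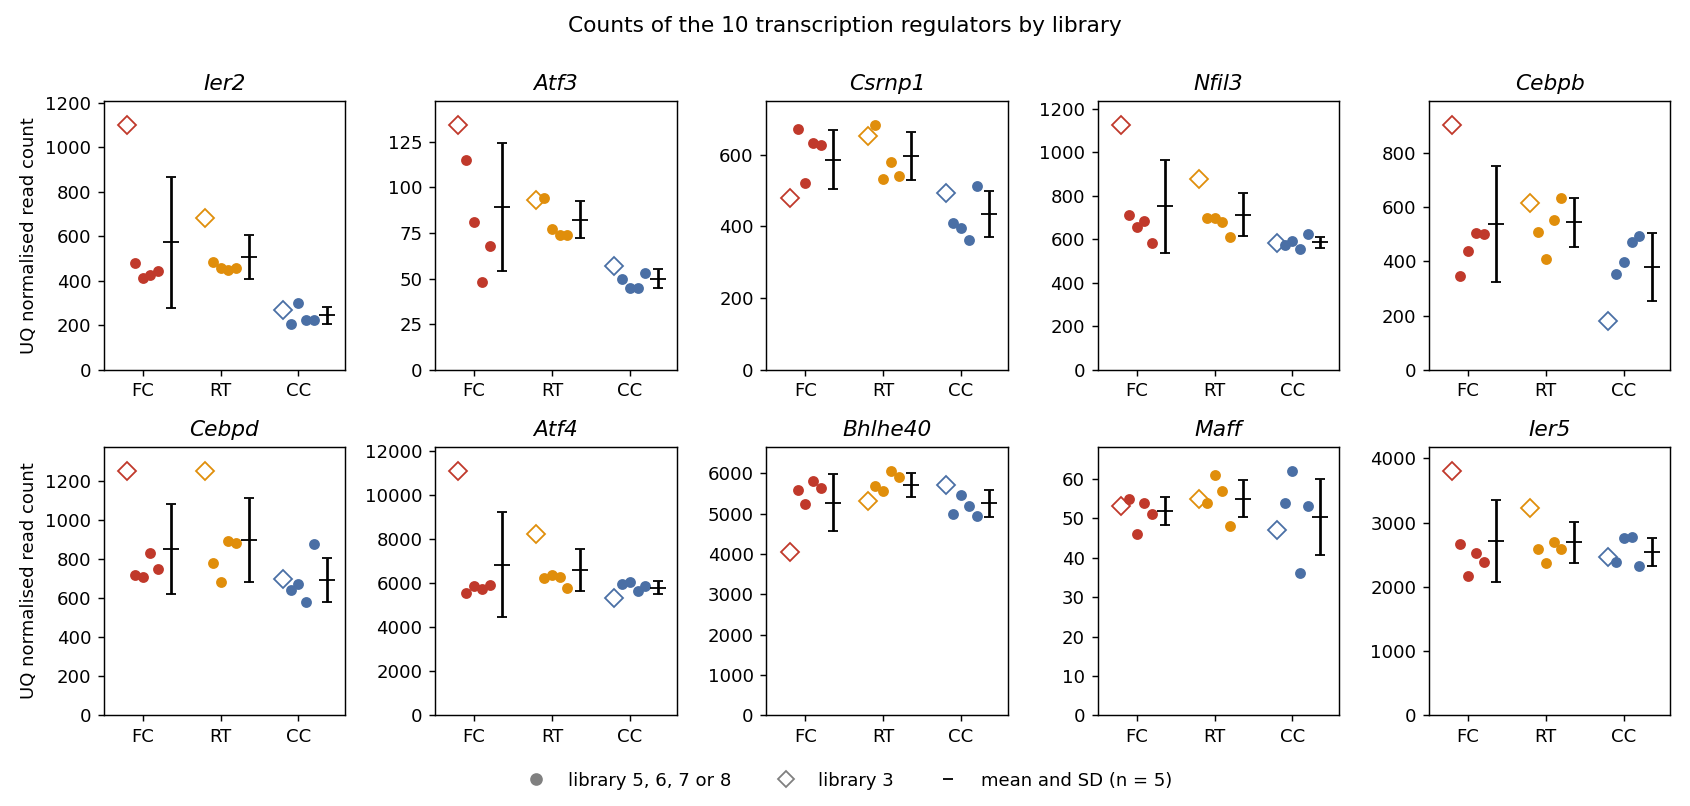
UQ normalised read counts (y axes, starting at 0) of each regulator in the FC, RT and CC libraries, with open diamonds for the libraries numbered 3 and black bars for mean and SD of 5 libraries. FC3 was the highest FC library for 7 of the 10 genes, and *Ier2* was higher in each FC and RT library, down to 412 counts, than in any CC library, up to 300.

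In the main model 4 of the regulators were called higher after training, and the same 4 after retrieval: *Ier2*, *Atf3*, *Csrnp1* and *Nfil3*. Other tests, given below, called fewer of them. The main model was the one of the study's methods, with 5 RUVs factors for unwanted variation estimated from 625 negative control genes, none of them a member, and calls were made at a false discovery rate (FDR) of 0.01. It called 4 of the 10 members between FC and CC, all higher, against 2.24% of all tested genes called and 1.32% called higher. Between RT and CC it called 4 of 10, all higher, against 1.01% of all tested genes called and 0.866% called higher. The median log2 fold change of the 10 members was 0.18 in FC and 0.22 in RT, against -0.01 and -0.00121 over all tested genes. The comparisons share the CC libraries, so that they are not independent of each other. Because the members were chosen with earlier results of these data known, these shares and medians do not test whether they respond as a set.

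*Ier2*, an immediate early gene whose product is a nuclear regulator of transcription, moved most. Its UQ counts were 1098, 481, 412, 428 and 445 in FC3, FC5, FC6, FC7 and FC8, 681, 485, 456, 447 and 458 in the RT libraries in the same order, and 267, 205, 300, 225 and 224 in the CC libraries. Each trained library was above each CC library, in FC and in RT, with the highest values in FC3 and RT3. The log2 fold change was 0.94 (SE 0.0829) in FC and 0.92 (SE 0.0823) in RT, or 1.92-fold and 1.90-fold, with adjusted p = 1.64e-26 and 6.68e-26 in the edgeR likelihood ratio test. An exact two-sided permutation test of log2 UQ counts gave p = 0.00794 for FC and for RT, the smallest that 5 against 5 allows. For *Atf3* and *Csrnp1* the exact p was 0.0317 in FC and 0.00794 in RT, and for *Nfil3* 0.0317 in FC and 0.0159 in RT. Without FC3 and RT3 the log2 fold changes were 0.89 in FC and 0.92 in RT, and without FC5 and FC8 the FC value was 0.87. *Ier2* was called between FC and CC in each of the 28 other settings tried, at log2 fold changes of 0.86 to 1.23, and between RT and CC in 27 of 28. The exception was UQ scaling without RUVs factors in RT, with a log2 fold change of 1.05 and adjusted p = 0.0119 (edgeR).

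*Atf3*, a stress-inducible member of the ATF/CREB family that represses many of its targets, was a low-abundance gene. It had 134, 115, 81, 48 and 68 UQ counts in FC3 to FC8, 93, 94, 77, 74 and 74 in the RT libraries, and 57, 50, 45, 45 and 53 in the CC libraries. All 5 RT libraries and 4 of the 5 FC libraries exceeded every CC library, and FC7 lay within the CC range. After adjustment for the RUVs factors FC7 stood at 72.1, the lowest FC value, and the highest CC value was 68.2. The factors are estimated from deviations within groups, so that the adjustment itself draws libraries of a group together. That the adjusted groups did not overlap is therefore no test of a difference. The log2 fold change was 0.70 (SE 0.129, adjusted p = 9.23e-06, edgeR) in FC and 0.72 (SE 0.129, adjusted p = 9.24e-06) in RT, which is 1.63-fold and 1.64-fold. The FC call rested on FC5: without it the log2 fold change was 0.52 with adjusted p = 0.0185, and without FC5 and FC8 it was 0.50 with adjusted p = 0.0798. Without FC3 and RT3 the values were 0.60 in FC and 0.74 in RT, both called.

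*Csrnp1*, named for its cysteine and serine rich nuclear protein, had 479, 671, 520, 632 and 626 UQ counts in FC3 to FC8, 653, 681, 532, 580 and 539 in the RT libraries, and 493, 408, 394, 363 and 513 in the CC libraries. Only FC3 fell within the CC range, and no RT library did. It was the 1 called member for which FC3 was the lowest FC library. The log2 fold change was 0.46 (SE 0.0925, adjusted p = 8.77e-05, edgeR) in FC and 0.44 (SE 0.0926, adjusted p = 3.61e-04) in RT, or 1.38-fold and 1.36-fold. Without FC5 and FC8 the FC value was 0.35 with adjusted p = 0.0325, and no single library ended the call in either comparison.

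*Nfil3*, a bZIP repressor that binds the same sites as the PAR bZIP activators DBP, TEF and HLF, changed least among the called genes. It had 1123, 713, 657, 683 and 582 UQ counts in FC3 to FC8, 876, 699, 696, 680 and 612 in the RT libraries, and 585, 572, 592, 554 and 624 in the CC libraries. FC8 and RT8 lay within the CC range and the other 8 trained libraries above it. The log2 fold change was 0.22 (SE 0.0543, adjusted p = 0.00279, edgeR) in FC and 0.22 (SE 0.054, adjusted p = 0.00618) in RT, or 1.17-fold and 1.16-fold. The call was lost in FC without CC5, CC6, CC7, FC3, FC5 or FC7, with log2 fold changes of 0.19 to 0.22 and adjusted p of 0.0102 to 0.0465, and also without FC5 and FC8 together (0.24, adjusted p = 0.0175). In RT it was lost without CC5, CC6, CC7, RT5 or RT6, with 0.19 to 0.22 and adjusted p of 0.0156 to 0.0536.

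**Figure D2:**
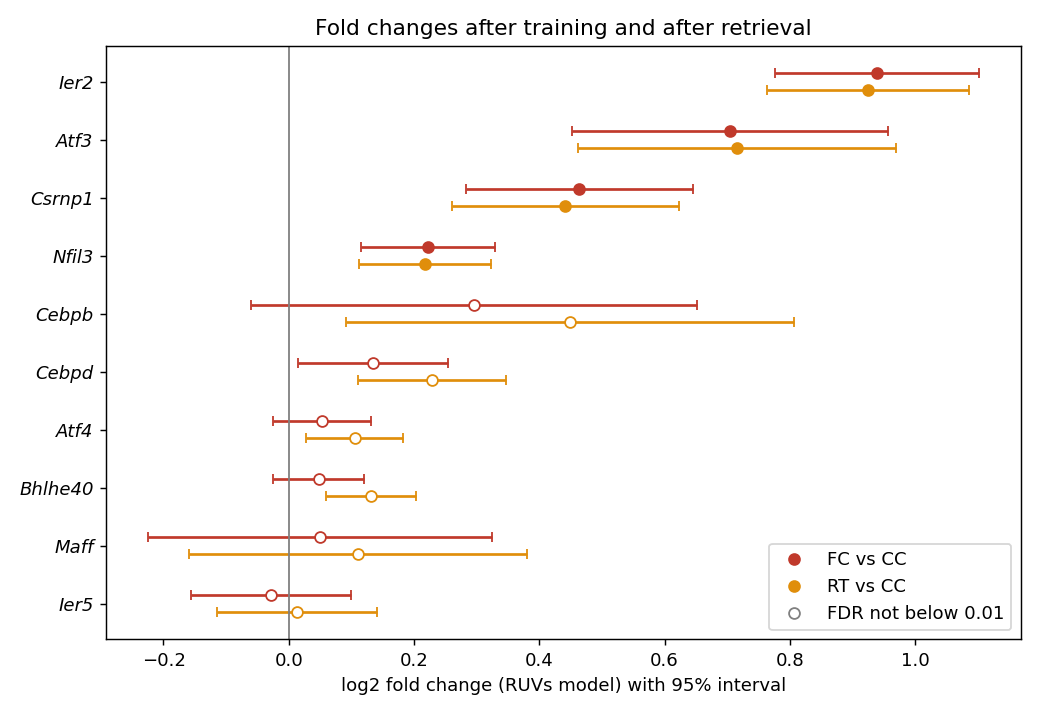
Log2 fold change of each regulator against CC (x axis) with its 95% interval from the RUVs model, in red for FC and in orange for RT, filled where the FDR was below 0.01. *Ier2*, *Atf3*, *Csrnp1* and *Nfil3* are filled in both colours, and the intervals of FC and RT overlap for all 10 genes.

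Neither C/EBP member passed the threshold in either comparison. *Cebpd*, a C/EBP gene induced by cytokines and glucocorticoids, had 1249, 719, 705, 828 and 750 UQ counts in FC3 to FC8, 1248, 781, 684, 890 and 883 in the RT libraries, and 699, 641, 671, 578 and 875 in the CC libraries. CC8 lay among the trained libraries, and RT6 lay below CC3 and CC8. Its log2 fold change was 0.23 (SE 0.0605, adjusted p = 0.0133, edgeR) in RT and 0.13 (SE 0.0608, adjusted p = 0.222) in FC. The RT value passed the threshold when CC3, CC8, FC7, FC8 or RT6 was left out, with log2 fold changes of 0.23 to 0.31. The annotation the counts were made with lists *Cebpd* as a pseudogene (chr16:15887379-15888559, mm9, 1180 exonic bases).

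*Cebpb*, which encodes the C/EBP protein best known from the acute phase response and from long-term memory work in several species, had 901, 346, 439, 504 and 501 UQ counts in FC3 to FC8, 617, 508, 408, 551 and 635 in the RT libraries, and 179, 352, 396, 473 and 495 in the CC libraries. Its 2 extreme libraries were both numbered 3, FC3 at the top and CC3 at the bottom. The log2 fold changes were 0.30 (95% interval -0.06 to 0.65, adjusted p = 0.43, edgeR) in FC and 0.45 (0.09 to 0.81, adjusted p = 0.259) in RT, with SEs of 0.181 and 0.182, the largest of the 10 members. Its gene (chr2:167514415-167515918, mm9) shares 312 exonic bases with *Tmem189* on the other strand. Reads of such a stretch could not be assigned without strand, and the strand setting of the counting is not given in the sources used here.

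*Atf4*, *Bhlhe40*, *Maff* and *Ier5* did not pass the threshold in either comparison. *Atf4* had 5538 to 11102 UQ counts in FC with a median of 5883, 5807 to 8246 in RT with a median of 6266, and 5347 to 6082 in CC with a median of 5885. Both maxima were the libraries numbered 3. The log2 fold change was 0.05 in FC (95% interval -0.03 to 0.13) and 0.11 in RT (0.03 to 0.18, adjusted p = 0.198, edgeR). *Bhlhe40* had 4060 to 5802 UQ counts in FC, 5314 to 6056 in RT and 4929 to 5719 in CC, and FC3 was the lowest of the 15 libraries. Its log2 fold change was 0.13 in RT (SE 0.037, adjusted p = 0.0271, edgeR) and 0.05 in FC (adjusted p = 0.571), and the RT value was called without CC3 (0.16, adjusted p = 0.00336). The gene shares 118 exonic bases with the lincRNA *0610040F04Rik* on the other strand (chr6:108610623-108616919, mm9).

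*Maff*, a small MAF protein without an activation domain of its own, had 46 to 55 UQ counts in FC, 48 to 61 in RT and 36 to 62 in CC. At this depth the 95% intervals of its log2 fold change ran between -0.22 and 0.33 in FC and between -0.16 and 0.38 in RT, so that a change as large as that of *Nfil3* would not have been told from none. *Ier5* had 2161 to 3801 UQ counts in FC, 2370 to 3226 in RT and 2326 to 2778 in CC. Its log2 fold changes were -0.03 (95% interval -0.16 to 0.10) in FC and 0.01 (-0.11 to 0.14) in RT. The intervals of *Ier5* and *Ier2* did not overlap in either comparison.

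No member was called between FC and RT, where 0.122% of all tested genes were (0.0777% higher and 0.0444% lower), and DESeq2 and the quasi-likelihood test called no member either. The log2 fold changes ran between -0.15 for *Cebpb* (95% interval -0.50 to 0.20) and 0.02 for *Csrnp1* (-0.16 to 0.20). For the 4 genes called against CC, the FC and RT levels differed by -0.01 (*Atf3*, -0.24 to 0.22), 0.00463 (*Nfil3*, -0.10 to 0.11), 0.02 (*Csrnp1*) and 0.02 (*Ier2*, -0.14 to 0.17) on the log2 scale. These intervals do not show that the levels are equal. *Bhlhe40* alone had an unadjusted p below 0.05 in the edgeR test, at a log2 fold change of -0.08 (adjusted p = 0.355), while 10.8% of all tested genes had one. FC and RT libraries that carry one number in common deviated together, most strongly FC3 and RT3 (r = 0.87) and least FC7 and RT7 (r = 0.26). With the number as a replicate block the count of members remained 0, and that of all genes was 82, against 22 without the block.

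**Figure D3:**
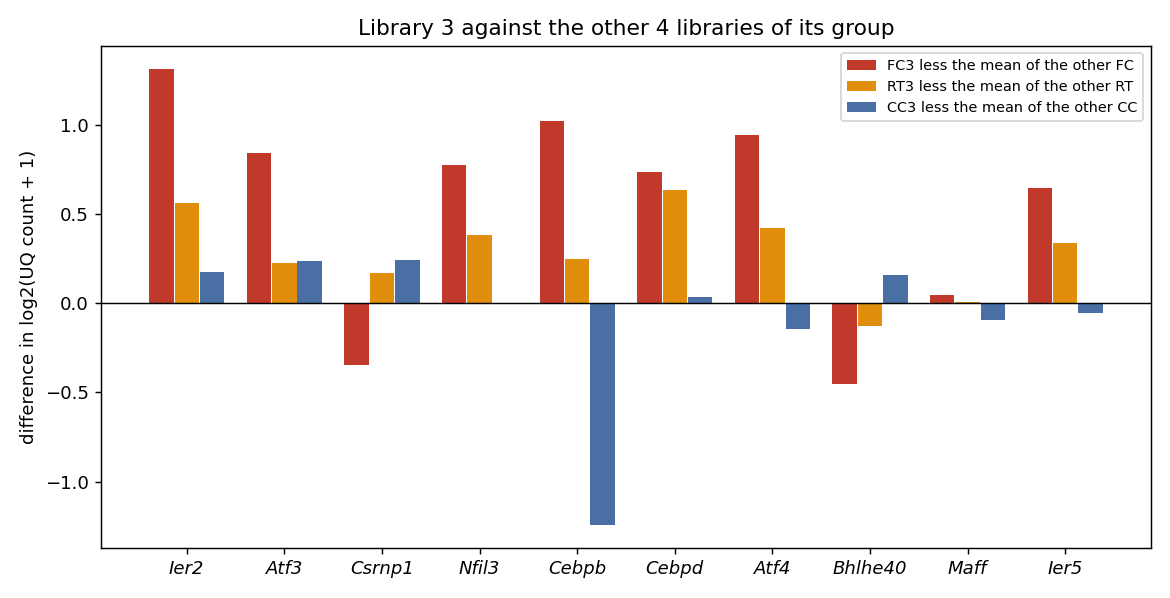
Difference in log2(UQ count + 1) between the library numbered 3 and the mean of the other 4 libraries of its group (y axis) for each regulator, in red for FC, orange for RT and blue for CC. FC3 was higher by 0.65 to 1.31 for 7 genes and lower for *Csrnp1* and *Bhlhe40*, and CC3 was lower by 1.24 for *Cebpb*.

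FC3 deviated upwards for most members. Against the mean of the other FC libraries, FC3 was higher by 1.31 on the log2 scale for *Ier2*, 1.02 for *Cebpb*, 0.94 for *Atf4*, 0.84 for *Atf3*, 0.77 for *Nfil3*, 0.74 for *Cebpd* and 0.65 for *Ier5*, against a median of 0.000532 over all tested genes. Among all tested genes in FC3, these differences lay between percentile 76.2 (*Ier5*) and percentile 94.0 (*Ier2*). Shifts of this size in FC3 were thus not particular to the members. *Maff* differed by 0.04, *Csrnp1* by -0.35 and *Bhlhe40* by -0.45. RT3 deviated in the same direction as FC3 for 9 members, with *Csrnp1* as the exception. The 10 members had exonic lengths of 1180 to 3272 bases against a median of 3253 for all tested genes. *Bhlhe40* and *Ier5*, nearly equal in length at 3272 and 3270 bases, deviated in opposite directions. Whether transcript length had a part in these deviations was not tested.

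The calls depended on the RUVs factors. With UQ scaling alone, *Ier2* was the 1 member called between FC and CC, at a log2 fold change of 1.23 (SE 0.243, adjusted p = 3.48e-04, edgeR), against 0.189% of all tested genes. Between RT and CC no member was called, against 0.106% of all tested genes, and 4 had an unadjusted p below 0.05, against 1.39%. In FC 5 had such a p with UQ scaling alone, against 3.07%, and between FC and RT none had, against 0.677%. In the RUVs model 5 members had one in FC, against 16.5% of all tested genes, and 8 in RT, against 11% of them. With the RUVs factors kept, edgeR's quasi-likelihood test called *Ier2* alone in each comparison, and DESeq2 called *Ier2* and *Csrnp1*. In the quasi-likelihood test *Atf3* had adjusted p = 0.0293 in FC and 0.0424 in RT, and *Nfil3* 0.0349 and 0.0676. UQ counts of FC and CC did not overlap for *Ier2* alone, against 0.861% of all tested genes, and those of RT and CC for *Ier2*, *Atf3* and *Csrnp1*, against 1.29%. Without FC3 and RT3, UQ scaling alone called *Ier2* and *Csrnp1* between FC and CC, and *Ier2* between RT and CC, a setting chosen after the data had been seen. The log2 fold changes in FC moved with the scaling to different extents. That of *Nfil3* was 0.36 with UQ scaling (SE 0.17) and 0.22 with RUVs (SE 0.0543), and that of *Ier2* 1.23 and 0.94. Among the members not called, *Cebpb* had 0.51 and 0.30, *Cebpd* 0.30 and 0.13, and *Atf4* 0.24 and 0.05. That of *Atf3* was 0.83 with UQ scaling (SE 0.226) and 0.70 with RUVs (SE 0.129), and that of *Csrnp1* 0.43 (SE 0.153) and 0.46 (SE 0.0925).

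**Figure D4:**
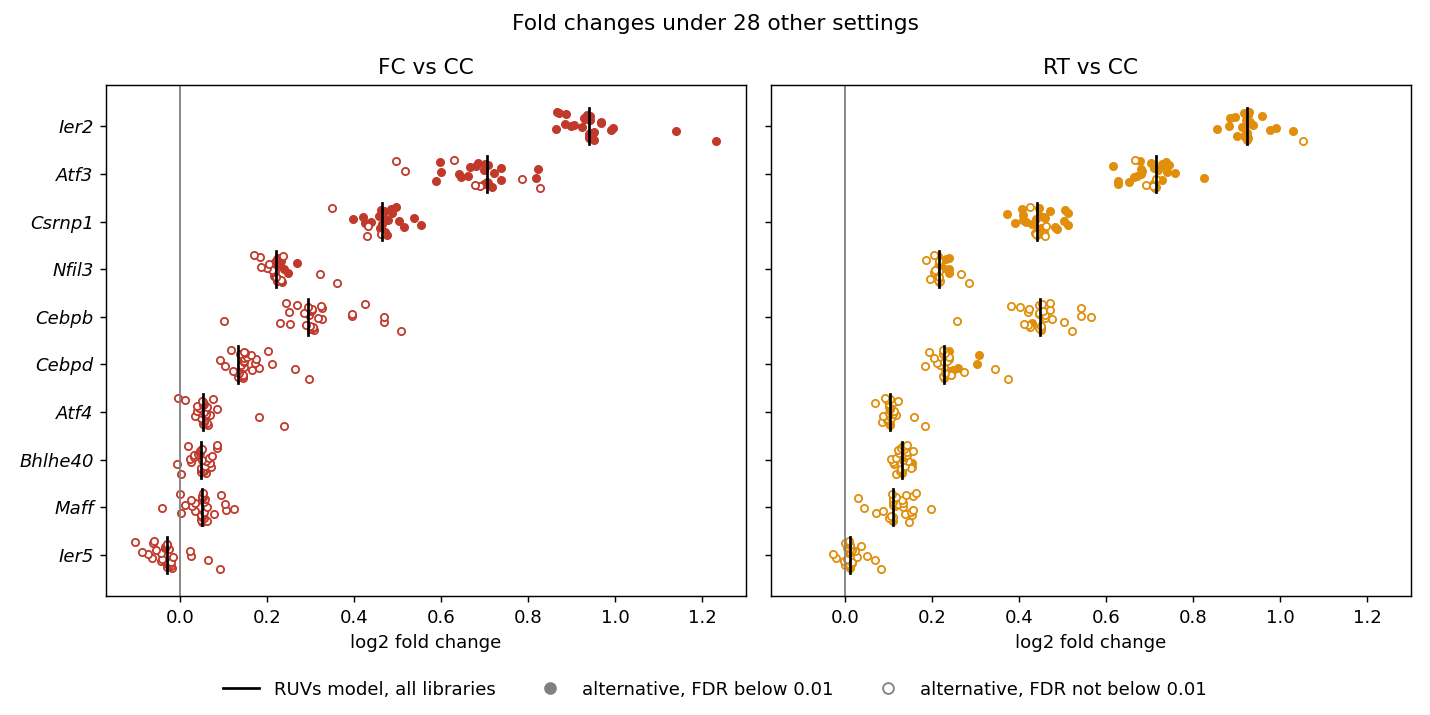
Log2 fold change of each regulator (x axis) in FC vs CC (left) and RT vs CC (right) under 28 other settings, as points filled where the FDR was below 0.01, with a black line for the RUVs model on all libraries. *Ier2* is filled throughout in FC, *Nfil3* in 14 of 28 settings, and *Cebpb*, *Cebpd*, *Atf4*, *Bhlhe40*, *Maff* and *Ier5* in none of them in FC.

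Relatives of the members by protein family were examined in the same model. Of 51 genes in 6 lists (ATF/CREB, C/EBP, MAF and CNC, PAR bZIP, bHLH-Orange, and IER and CSRNP genes), 45 were tested. None was called higher and 1 lower in FC, 1 higher and 1 lower in RT, and the median log2 fold changes were 0.02 and 0.03. The called share of relatives was 2.22% in FC, against 2.24% of all tested genes, and 4.44% in RT, against 1.01%, and at such small counts nothing is read from either. *Hes5*, a Notch-responsive bHLH-Orange repressor, was called lower, with log2 fold changes of -0.43 (SE 0.0774, adjusted p = 8.34e-06, edgeR) in FC and -0.43 (SE 0.076, adjusted p = 4.76e-06) in RT. Its UQ counts showed no such difference in FC, with 268 ± 185 against 266 ± 25.6 in CC, and 227 ± 68.3 in RT (SD, n = 5 each), and the FC value with UQ scaling alone was 0.01. Without FC3 and RT3, however, UQ scaling alone called *Hes5* lower in FC and in RT, a setting chosen after the data had been seen. *Heyl*, of the same list, had log2 fold changes of -0.25 (adjusted p = 0.0222) in FC and -0.14 in RT. *Cebpa*, the C/EBP factor of myeloid and liver differentiation, was called higher in RT at 0.23 (SE 0.0576, adjusted p = 0.00668) and had 0.17 in FC (adjusted p = 0.0754). Its RT call was lost without CC3, CC5, FC3, FC7, RT3, RT5, RT7 or RT8, at 0.18 to 0.24. The call was also lost in 8 of 13 other settings, among them the quasi-likelihood test (adjusted p = 0.0713), DESeq2 (0.0730) and UQ scaling alone.

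*Crem* and *Atf7* had the smallest p of 16 ATF/CREB relatives in RT, with log2 fold changes of 0.15 and -0.14 (adjusted p = 0.201 and 0.315, edgeR). In FC they were *Creb3l2* and *Atf1*, with -0.10 and 0.06. The partner kinds of *Maff* stood at 0.22 for *Mafk*, another small MAF gene, in RT (adjusted p = 0.0324), and 0.15 in FC. *Bach2*, which encodes a repressor that pairs with small MAF proteins, was the 1 relative called between FC and RT, at -0.27 (SE 0.0607, adjusted p = 0.00688), with 460 ± 126 UQ counts in FC and 563 ± 83.3 in RT. The *Bach2* call was lost in 10 of 13 other settings, among them the quasi-likelihood test (adjusted p = 0.257), DESeq2 (0.182), 3 RUVs factors (0.115) and UQ scaling alone, and without FC3, FC5, FC7, RT3 or RT7 (0.0118 to 0.0616). The log2 fold change lay between -0.32 and -0.21 throughout. *Bach2* had -0.14 in FC and 0.13 in RT against CC, neither of them called. *Dbp*, *Hlf* and *Tef*, which share sites with *Nfil3*, were not called, and *Dbp* had 0.10 in FC and 0.19 in RT (adjusted p = 0.481 and 0.0983). *Csrnp2*, the closest relative of *Csrnp1* in the lists, had 0.17 in both (adjusted p = 0.0176 and 0.0281), and *Ier5l* 0.12 and 0.21. *Cebpg* stood at 0.08 in FC and 0.09 in RT.

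Of the ATF4 stress response, which here takes in kinases upstream of ATF4 (*Eif2ak1* to *Eif2ak4*) as well as its targets, 23 genes were listed and tested. Among them, 1 was called higher in FC, where 1.32% of all tested genes were, and 1 in RT, where 0.866% were, and the median log2 fold changes were -0.00837 and 0.01. That gene was *Ddit4*, an inhibitor of mTORC1 that glucocorticoids also induce, at 0.42 (SE 0.0503, adjusted p = 1.03e-13, edgeR) in FC and 0.43 (SE 0.05, adjusted p = 1.17e-14) in RT. It had 3314 ± 434 UQ counts in FC, 3352 ± 531 in RT and 2412 ± 328 in CC (SD, n = 5 each). With UQ scaling alone *Ddit4* had 0.46 in FC and 0.48 in RT and was not called (adjusted p = 0.493 and 0.708), nor was it in the other settings without RUVs factors. *Ddit4* is among the positive controls of the study, so that it is not independent evidence of a response. *Ppp1r15b*, which helps to end eIF2α phosphorylation, had 0.12 in FC (adjusted p = 0.0413), and *Trib3*, an ATF4 target, -0.54 in FC (adjusted p = 0.0445) and -0.47 in RT (adjusted p = 0.162). *Trib3* had 27.8 ± 3.90 UQ counts in FC, 29.6 ± 6.69 in RT and 39.8 ± 9.15 in CC.

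For each called member, the 3 genes with the most similar profile were sought among the 14990 other tested genes with a mean of at least 50 UQ counts, by Pearson's r of log2 RUVs normalised counts over the 15 libraries. *Ier2* was closest to *Errfi1* (r = 0.994), *Ankrd53* (0.988) and *Arc* (0.986), the last an effector gene of synaptic plasticity. *Atf3* was closest to *Irf2bp2* (0.979), *Cnn3* (0.958) and *Errfi1* (0.957). *Csrnp1* was closest to *Rassf1* (0.972), *Unc45a* (0.963) and *Dusp5* (0.951), and *Nfil3* to *Clk4* (0.966), *Sap30* (0.961) and *3110001I22Rik* (0.953). *Errfi1*, a feedback inhibitor of the EGF receptor, was named for both *Ier2* and *Atf3*. Among the called members themselves r was 0.84 to 0.94 on that scale and, on UQ counts, 0.34 (*Nfil3* and *Csrnp1*) to 0.88 (*Nfil3* and *Ier2*) over all 15 libraries and 0.70 to 0.81 without FC3 and RT3. The points share libraries, depth and the RUVs factors, and all these profiles contain the difference between trained and CC libraries.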

How the data were processed

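Polyadenylated hippocampal RNA of 15 libraries was sequenced. According to the study's methods and the submitters' processing notes, the authors aligned paired reads to mm9 with GSNAP, kept unique and concordant pairs, and deposited raw read counts per Ensembl gene from HTSeq 0.6.1. A gene was tested when over 5 libraries had over 10 reads of it. Counts were modelled with edgeR 4.0.16 in R 4.3.3, all libraries together, with group, 5 RUVs factors and upper-quartile factors, by the likelihood ratio test with Benjamini-Hochberg adjustment (FDR). RUVs was rebuilt from its published algorithm, with the study's 625 negative control genes, and the code was tested on simulated data. UQ counts are upper-quartile normalised, and log2 levels used a pseudocount of 1. FPKM was computed here from exonic lengths. SEs follow from the likelihood ratio, and 95% intervals from the SE. Positions and overlaps came from the Ensembl annotation on mm9, and promoter windows from RefSeq on GRCm38.p6. FC and RT libraries of one number correlated in their deviations (r of 0.26 to 0.87 in all 5 pairs, against a median of 0.147 and a maximum of 0.521 for unlike numbers), although FC7 correlated more with RT5 and RT6 than with RT7. Unlike pairs that held FC3 or RT3 all had negative r (-0.70 to -0.20), which lowers that median. FC or RT and CC libraries of one number did not correlate in this way (-0.34 to 0.25), so that only FC vs RT is read as paired here. According to the study's methods, each lane held a library of every group. Whether the numbers follow lanes or days is not given in the sources used here. The low correlations cannot show that CC libraries share no such block with the others. DESeq2 1.42.0, the quasi-likelihood test, other factors and filters, and left-out libraries were alternatives. All members, the listed relatives that were called, those with the 2 smallest p of each list, and 3 genes of like profile per called member were named. Members and lists were chosen with earlier results of these data known.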

Additional observations from a re-analysis of the deposited data

Results flagged for a closer look

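In 7 of 30 groups of 5 libraries (10 genes in 3 groups), 1 library lay far from the other 4 by Dixon's test, where chance gives about 1 in 20. FC3 was that library in 5 cases and RT3 in 2. FC3 had 11102 UQ counts of *Atf4* against 5538 to 5906 in the other FC libraries, 901 of *Cebpb* against 346 to 504, 1249 of *Cebpd* against 705 to 828, 1123 of *Nfil3* against 582 to 713, and 1098 of *Ier2* against 412 to 481. RT3 had 8246 UQ counts of *Atf4* against 5807 to 6365 in the other RT libraries and 681 of *Ier2* against 447 to 485. The same 2 libraries had the widest relative log expression, and the cause was not tested.

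*Bach2* passed the threshold between FC and RT, with a log2 fold change of -0.27 in the edgeR test, but lost the call in 10 of 13 other settings and in 5 of 15 fits that left out 1 library.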

How the results depend on the processing

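Of 280 log2 fold changes of members (10 genes, 28 settings), 248 kept direction and side of the threshold in FC vs CC, 25 lost the call and 7 changed sign. In RT vs CC 244 kept both, 22 lost and 11 gained the call and 3 changed sign, and in FC vs RT 242 kept both and 38 changed sign, all uncalled. The cause of these changes was not tested. *Maff* and *Atf3* had the fewest reads of the 10 members, and the 95% interval of *Maff* spans changes of the size seen for *Nfil3*.

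Called genes are given as members, relatives and all genes. With UQ scaling alone they were 1, 0 and 34 in FC vs CC, 0, 0 and 19 in RT vs CC, and 0 relatives and 0 genes in FC vs RT. The quasi-likelihood test called 1, 0 and 98, 1, 0 and 66, and 0 relatives and 0 genes. DESeq2 with RUVs factors called 2 members and 164 genes in FC vs CC, 2, 1 and 85 in RT vs CC, and 0 relatives and 4 genes in FC vs RT. FC vs CC called 251 genes with no filter on low counts, 176 with 3 factors and 815 at an FDR of 0.05. An FDR of 0.05 called 311 genes in RT vs CC and 98 in FC vs RT, and 3 relatives in FC vs CC and 4 in RT vs CC. TMM factors called 2 relatives in FC vs CC and 0 in FC vs RT. No filter and 3 factors each called 0 relatives in FC vs RT, where 3 factors called 1 gene and RUVs with all genes as controls 39. Without FC5 and FC8 the counts were 1, 2 and 219 in FC vs CC, 1 relative in RT vs CC, and 0 relatives and 50 genes in FC vs RT. Without FC3 and RT3, FC vs RT called 0 relatives and 62 genes, and with UQ scaling alone 0 and 0. That last setting, added after the data had been seen, called 2, 1 and 110 in FC vs CC and 1, 1 and 66 in RT vs CC. The relative was *Hes5* in both.

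With the number as a replicate block and RUVs factors, 2 relatives were called in FC vs CC and 82 genes in FC vs RT. The block with UQ scaling alone called 1, 0 and 45 in FC vs CC, 1, 0 and 27 in RT vs CC, and 0 relatives and 0 genes in FC vs RT. In RT vs CC, where libraries of one number did not correlate in their deviations, the block with RUVs factors called *Cebpb* and *Cebpd* as well.

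Where the sign changed, the value under the other setting was not called, and it lay between -0.0956 and 0.114 in the settings of this paragraph. With UQ scaling alone, *Ier5* and *Hes5* had 0.0917 and 0.0115 in FC vs CC. For *Hes5* this was no small change, since the RUVs model had called it lower at -0.43. In FC vs RT, *Atf3*, *Atf4*, *Csrnp1*, *Ier5*, *Ddit3* and *Ier5l* had 0.114, 0.0542, -0.0292, 0.00864, 0.109 and 0.0834. With the block and UQ scaling, *Bhlhe40* and *Ier5* had -0.00559 and 0.0651 in FC vs CC, and *Atf3*, *Atf4*, *Csrnp1*, *Ddit3* and *Ier5l* had 0.0709, 0.0237, -0.0299, 0.0610 and 0.0180 in FC vs RT. With the block and RUVs factors *Ier5* had -0.00178 in RT vs CC and *Atf3* 0.00830 in FC vs RT. *Atf3* in FC vs RT had 0.00228 with TMM, 0.0712 with no filter and 0.0527 with 3 factors, where *Csrnp1* had -0.0249. Without FC5 and FC8, *Atf1* had -0.0485 in FC vs CC, and *Csrnp1* and *Ier2* had -0.0956 and -0.0462 in FC vs RT. Without FC3 and RT3, *Nfil3*, *Ier2* and *Csrnp3* had -0.0296, -0.0359 and 0.0181 in FC vs RT. With UQ scaling alone these were -0.0340, -0.0618 and 0.0322, *Hes6* had -0.0135, and *Atf4* had -0.00312 in FC vs CC.

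Leaving out 1 library at a time gave 2 to 4 members, 1 to 3 relatives and 249 to 653 genes in FC vs CC. The lowest counts of members and genes came without FC5 and the highest count of genes without CC8. In RT vs CC it gave 3 to 6 members, 1 to 3 relatives and 145 (without RT5) to 276 genes (without CC8). In FC vs RT it gave 0 to 1 relatives and 11 (without FC5) to 92 genes (without RT8). Log2 fold changes then ran between -0.0398 and 0.124 for *Maff* and -0.0873 and 0.0251 for *Ier5* in FC vs CC, and -0.0277 and 0.0519 for *Ier5* in RT vs CC. In FC vs RT they ran between -0.0274 and 0.0504 for *Nfil3*, -0.0443 and 0.0940 for *Csrnp1*, -0.0396 and 0.0417 for *Ier2*, -0.0581 and 0.00782 for *Csrnp3*, -0.100 and 0.00176 for *Ier5*, -0.166 and 0.142 for *Atf3*, and -0.108 and 0.0207 for *Maff*.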
